A study of Mus musculus with 8 samples.

Results

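FOXA1-only anchors were the fixed genomic intervals at which chromatin loops ended in both FOXA1 Hi-ChIP lists and in neither HNF4G list. They were selected on list presence alone, by identical mm10 intervals, and numbered 630 of the 30542 anchors in use (2.06%). The 8 Hi-ChIP samples came from mouse pancreatic cancer cells labelled WT and untreated, which were lines derived from KPC mice, an engineered pancreatic cancer model. FOXA1 and HNF4G were each profiled in a primary tumor line (tumor) and in a line from a matched liver metastasis (liver mets), with 2 replicates per group and both replicates merged in 1 loop list. All lines came from the KPC model, whose mice are engineered to develop pancreatic tumors, and WT in the labels is thus not a healthy genotype. Each context was represented by a line rather than by separate animals, and 1 list per group left no replicate spread and no test between groups. Each 95% interval below covers counting error only and treats anchors or loops as independent, although loops share anchors.

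FOXA1 is a forkhead pioneer factor that can bind closed chromatin and is active in endoderm-derived epithelia such as the pancreas. HNF4G is an orphan nuclear receptor of the HNF4 family, which binds DNA as a dimer at repeats of a half-site. Hi-ChIP ligates fragments of chromatin that lie close in space and then pulls down those carrying the chosen protein, so that a loop is a pair of distant anchors joined in the library and need not mean direct binding at both ends. Anchors here began and ended on cut sites of DpnII, the restriction enzyme used.

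The sequence shown first is that of 5 FOXA1-only anchors with many loops that hold the forkhead motif TGTTTAC on either strand, to show what the DNA around such a match looks like. Each is a stretch of the plus strand of GRCm38 (mm10), 5′ to 3′, centred on the match nearest to the anchor midpoint, and capitals mark TGTTTAC or its reverse complement GTAAACA. They lie at chr2:140103628-140103748 near Tasp1, chr4:56551816-56551936 between genes, chr7:131012785-131012905 near Dmbt1, chr8:78657060-78657180 in an intron of Slc10a7 and chr19:17011962-17012082 near Prune2.
Tasp1 anchor: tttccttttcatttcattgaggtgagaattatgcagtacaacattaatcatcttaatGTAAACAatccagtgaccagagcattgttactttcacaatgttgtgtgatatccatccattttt
Chromosome 4 anchor: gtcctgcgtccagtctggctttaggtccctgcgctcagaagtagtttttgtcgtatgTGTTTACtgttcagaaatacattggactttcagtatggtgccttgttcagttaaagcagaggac
Dmbt1 anchor: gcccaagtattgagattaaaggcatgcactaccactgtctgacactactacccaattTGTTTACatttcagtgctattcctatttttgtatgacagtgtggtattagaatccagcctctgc
Slc10a7 anchor: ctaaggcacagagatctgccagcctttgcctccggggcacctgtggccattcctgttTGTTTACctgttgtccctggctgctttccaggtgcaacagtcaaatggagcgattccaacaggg
Prune2 anchor: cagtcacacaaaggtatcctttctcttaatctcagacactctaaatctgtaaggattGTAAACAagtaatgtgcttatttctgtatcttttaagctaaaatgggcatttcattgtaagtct
None of these 5 windows held the HNF4-type motif CAAAGTCCA or the AP-1 motif TGANTCA. Over the whole anchor, TGANTCA had 1 match in the Tasp1 anchor, 2 each in the Dmbt1, Slc10a7 and Prune2 anchors and 0 in the chromosome 4 anchor. A match is a run of letters and was not shown to be a bound site.

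A smaller class of FOXA1-only anchors lay on CpG-rich promoters, and the RefSeq promoters of Prkar2a and Atrn are shown for contrast because their anchors had the most loops among anchors that contained such a promoter whole. The anchor of Heca tied with that of Atrn at 10 loops, and the first by chromosome order is shown. Both run from 250 bases before to 50 bases after the start on the plus strand of GRCm38.p6, at chr9:108691893-108692192 and chr2:130906245-130906544, and capitals mark CG pairs.
Prkar2a promoter: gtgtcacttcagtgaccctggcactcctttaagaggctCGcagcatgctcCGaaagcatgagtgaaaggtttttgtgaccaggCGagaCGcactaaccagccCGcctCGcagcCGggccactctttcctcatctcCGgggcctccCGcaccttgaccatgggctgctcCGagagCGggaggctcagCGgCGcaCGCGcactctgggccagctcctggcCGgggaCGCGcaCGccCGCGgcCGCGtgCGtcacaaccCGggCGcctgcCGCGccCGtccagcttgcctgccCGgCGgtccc
Atrn promoter: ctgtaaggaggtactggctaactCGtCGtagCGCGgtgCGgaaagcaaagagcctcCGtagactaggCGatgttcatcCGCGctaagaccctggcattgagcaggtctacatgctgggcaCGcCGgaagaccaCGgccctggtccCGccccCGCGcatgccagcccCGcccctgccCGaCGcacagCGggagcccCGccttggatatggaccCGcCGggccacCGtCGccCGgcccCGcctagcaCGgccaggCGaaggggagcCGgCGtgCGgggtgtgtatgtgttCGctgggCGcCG
The Prkar2a window was 69.0% G or C with 31 CG pairs, and the Atrn window was 69.3% with 34. Neither held TGTTTAC, which 3.65% of the 32851 RefSeq promoters of this length held on either strand. Of 178 protein-coding genes with a start within 2 kb of a FOXA1-only anchor, 144 had a RefSeq promoter, and 99 anchors contained such a window whole.

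FOXA1-only anchors had few loops. Over both FOXA1 lists they had 2 to 14 loops with a median of 4 and quartiles of 3 and 6, against a median of 14 for the 24849 anchors used in all 4 lists. In the liver mets list they had 1 to 9 loops and in the tumor list 1 to 7, with a median of 2 in each. More loops in liver mets than in tumor were counted for 282 of them (44.8%), fewer for 151 (24.0%) and equal numbers for 197 (31.3%). The whole liver mets list was also the longer, with 125623 loops against 104136. These numbers were part of the selection and are a description: 127 members sat at its edge with 1 loop in each FOXA1 list, and just outside were 1272 anchors of both FOXA1 lists that had 1 HNF4G loop and 2 to 22 FOXA1 loops, with a median of 5.

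**Figure D1:**
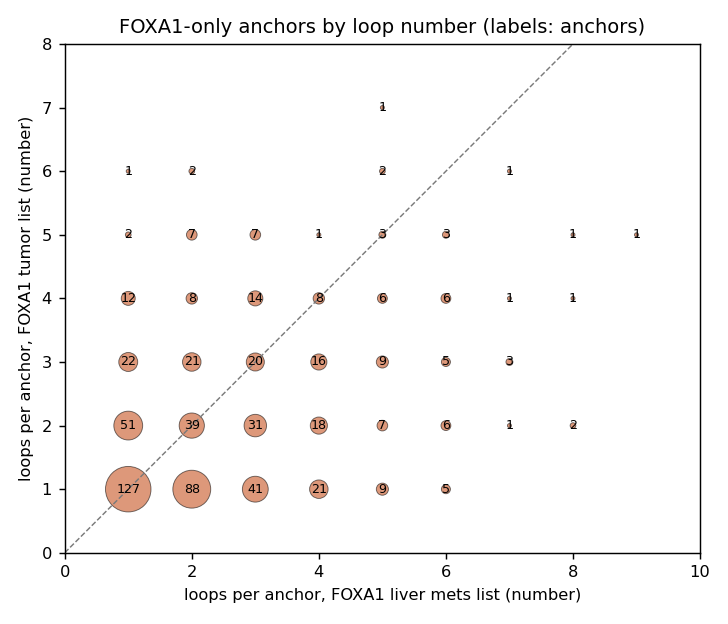
FOXA1-only anchors by their number of loops in the FOXA1 liver mets list (x axis) and the FOXA1 tumor list (y axis). Circle area and the label give the number of anchors, and the dashed line marks equal numbers. The largest group is the 127 anchors with 1 loop in each list, and 282 anchors lie to the right of the line.

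Anchors with few loops in the FOXA1 lists were often missing from both HNF4G lists. Counting anchors of either FOXA1 list, the share fell at each step from 2 to 9 loops, with small reversals above that. It was 23.8% of the 1048 anchors with 2 FOXA1 loops, 6.02% of those with 5, 0.879% of those with 9 and 0.996% of those with 10. It was 0 of 12291 anchors with 15 or more. The mirror class was much smaller: 52 anchors were used in both HNF4G lists and in neither FOXA1 list. At equal loop numbers the mirror share was also lower, at 2.54% with 2 HNF4G loops and 0.0945% with 5. Of the anchors in both lists of a protein, 2.22% were FOXA1-only and 0.203% HNF4G-only. With at least 3 loops in each list, 109 FOXA1-only anchors and 0 HNF4G-only anchors were left. The HNF4G lists were shorter, with 78098 and 76323 loops, library depth is unknown, and the part of list length in these absences was not tested.

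**Figure D2:**
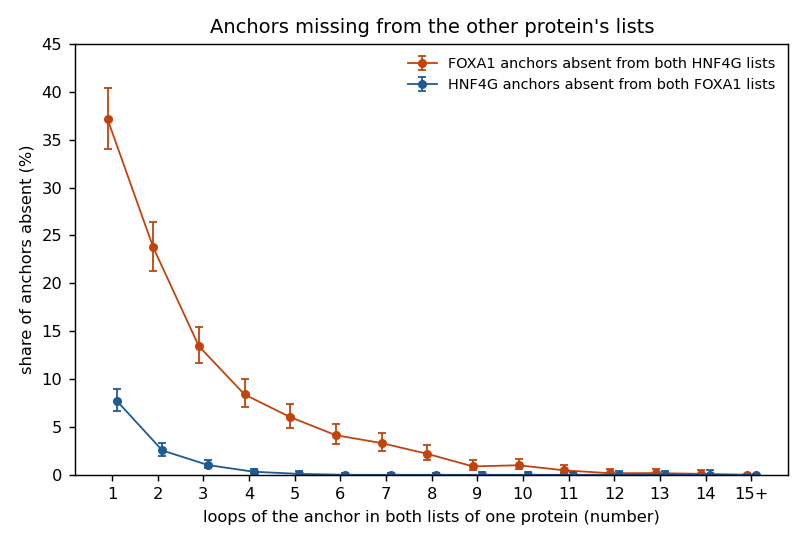
Share of anchors missing from both lists of the other protein (y axis, %) by the anchor's number of loops in both lists of its own protein (x axis, 15 or more pooled), for FOXA1 (orange) and HNF4G (blue). Bars are Wilson 95% intervals. The FOXA1 share is 23.8% at 2 loops and 0.996% at 10, and the HNF4G share lies below it, at 2.54% and 0.

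The FOXA1-only anchor with the most loops lay between genes at chr1:58760770-58762702, 30218 bp from a start of Cflar, which encodes an inhibitor of death receptor signaling. It had 9 loops in liver mets and 5 in tumor, and 3 of its loops were in both lists. These 3 led to the Cflar promoter 49.3 kb away, to the promoter of the kinesin adaptor gene Trak2 at 148 kb and to an anchor at the noncoding gene Gm20257 at 105 kb. Their values, the deposited numbers per loop explained below, were 0.0889, 1.20 and 0.0889 in liver mets and 0.425, 1.41 and 1.90 in tumor. An anchor only 13660 bp away had 4 and 8 FOXA1 loops together with 2 and 5 HNF4G loops. The Cflar anchor had more FOXA1 loops than this neighbor in liver mets and fewer in tumor. Its lack of HNF4G loops was the selection itself.

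Anchors with 13 loops lay near Tasp1 and in Slc22a15. The Tasp1 anchor (chr2:140102853-140104825), near the gene of a protease that cleaves MLL proteins, had 7 and 6 loops. It reached the promoters of Tasp1 at 61.3 kb and of Ism1 at 426 kb in both lists. The values were 0.729 in liver mets and 0.123 in tumor for Tasp1, and 1.76 and 1.85 for Ism1. The anchor in an intron of Slc22a15 (chr3:101917119-101918603), an organic ion transporter family gene, had 8 and 5 loops, and none of them was in both lists. Its neighbor in the HNF4G lists was 4738 bp away and had 8 and 5 HNF4G loops.

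The remaining anchors among the 10 with the most loops had 11 or 12. Of the 6 anchors with 11, the one near Prune2 tied for the last place and fell outside the 10 by chromosome order. An anchor in an intron of Flt1 (chr5:147717831-147720901), which encodes a VEGF receptor, had 5 and 6 loops and was 3890 bp from the anchor of the Flt1 promoter, which had 4 and 13 HNF4G loops. An anchor near Dmbt1 (chr7:131010726-131014869), the gene of a secreted mucosal scavenger receptor, had 7 and 4 loops and lay inside the annotated span of Fgfr2. It joined the promoter of the serine protease gene Htra1, 33.1 kb away, in both lists, with low values of 0.261 in liver mets and 0.123 in tumor. An anchor in an intron of Slc10a7 (chr8:78653568-78657906) had 5 and 6 loops. Its loop to the Zfp827 promoter, 373 kb away, had a value of 3.21 in liver mets and 3.36 in tumor, and it reached the promoter of the mineralocorticoid receptor gene Nr3c2 at 1755 kb in tumor with a value of 4.03. An anchor on chromosome 12 (chr12:35741369-35742919), nearest to Agr3 at 182701 bp, had 6 and 5 loops, of which 3 were in both lists. The chromosome 4 anchor shown above (chr4:56550228-56553165) had 6 and 5, and a tumor loop of 1010 kb with a value of 3.87 led to an anchor nearest to Klf4, a zinc finger factor of epithelia. The value is the deposited number per loop, read as −log10 of an adjusted p.

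Promoters were the seat of 194 FOXA1-only anchors, 30.8% (27.3 to 34.5), where a promoter anchor had a transcription start within 2 kb. The share was 45.2% of all anchors, 46.8% of anchors in all 4 lists and 37.5% of the 2879 anchors in both FOXA1 lists and 1 HNF4G list. FOXA1-only anchors thus lay at promoters less often, by -16.0 percentage points against the anchors in all 4 lists (-19.5 to -12.2). The difference was -16.2 points within strata of equal FOXA1 loop number, with an odds ratio of 0.501 (0.417 to 0.602). Within 5 strata of anchor GC content it was 1.33 points (-2.00 to 4.66), so that the direction turned and the interval included 0. Promoters often hold CpG islands, so GC content and promoter position are linked. Introns held 177 members (28.1%, against 20.6%) and intergenic DNA 206 (32.7%, against 23.7%).

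**Figure D3:**
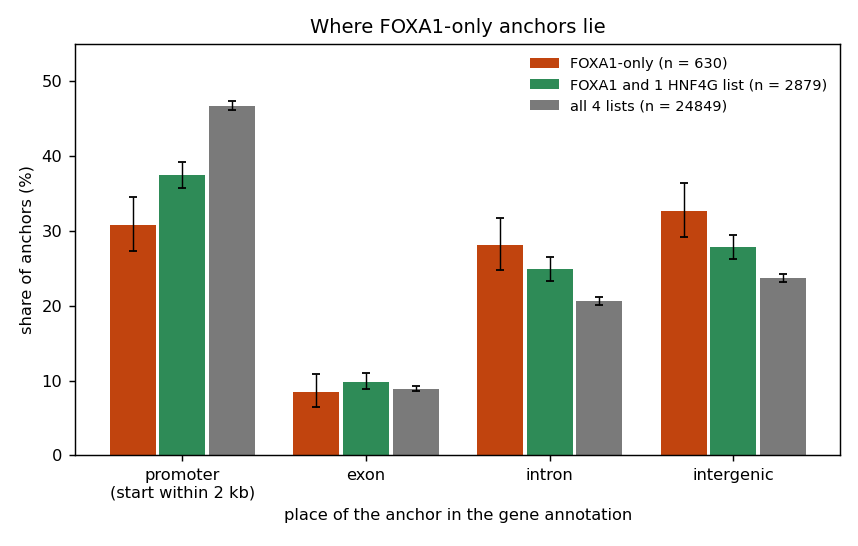
Share of anchors (y axis, %) at promoters, in exons, in introns and between genes, for FOXA1-only anchors (orange), anchors of both FOXA1 lists and 1 HNF4G list (green) and anchors in all 4 lists (gray). Bars have Wilson 95% intervals. FOXA1-only anchors are lowest at promoters (30.8%) and highest in introns (28.1%) and between genes (32.7%).

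The median distance from a FOXA1-only anchor to the nearest transcription start was 8671.5 bp, against 2770 bp for anchors in all 4 lists and 2656 bp for these at the members' FOXA1 loop numbers. To the nearest protein-coding start it was 20401.5 bp, against 5517 bp. No start lay within 100 kb of 28 members (4.44%), a share 3.59 points above that of anchors in all 4 lists (2.23 to 5.50). FOXA1-only anchors were 1241 to 6963 bp wide with a median of 2127 bp. Anchors in all 4 lists had a median of 2395 bp, but 2098 bp at the members' loop numbers, so width differed little once loop number was equal.

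The DNA of FOXA1-only anchors was poorer in G and C. Their median GC content was 43.7% (quartiles 40.4 and 46.8), against 48.7% in anchors of all 4 lists and 47.4% at equal loop numbers. Outside promoters the medians were 42.1% and 46.6%, and at promoters 47.7% and 51.7%. CG pairs numbered 9.07 per kb against 14.1. DpnII sites, on which the detection of a fragment depends, numbered 1.46 per kb against 1.95, and their part in the result was not tested.

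The forkhead motif TGTTTAC, searched on both strands, was in 263 FOXA1-only anchors (41.7%, 38.0 to 45.6), against 36.6% of all anchors and 36.4% of those in all 4 lists. It was in 38.0% of anchors of both FOXA1 lists and 1 HNF4G list, and the members' difference from these, 3.71 points, had an interval that included 0 (-0.478 to 7.98). Of the 52 HNF4G-only anchors 38.5% held it. The difference from anchors in all 4 lists was 5.38 points (1.55 to 9.32), and 7.15 points at equal FOXA1 loop number (2.95 to 11.4). Within 5 strata of GC content it was 0.0362 points (-3.86 to 3.93), and within 5 by 5 strata of GC content and of width 3.29 points (-0.576 to 7.15). Outside promoters 46.6% of 436 members held TGTTTAC, against 38.5% of anchors in all 4 lists, a difference of 8.03 points (3.33 to 12.8). Within 5 by 5 strata of GC content and of width this difference was 6.58 points (1.79 to 11.4). At promoters the shares were 30.9% and 33.9%, a difference of -2.97 points whose interval included 0. In the split by promoter position, the interval of the motif difference lay above 0 outside promoters only. Whether the difference itself differs between promoters and other anchors was not tested.

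The letters of other factors were searched in the same way. CAAAGTCCA, a half-site repeat that HNF4 proteins recognize, was in 21 FOXA1-only anchors (3.33%), against 4.40% of all anchors and 4.50% of those in all 4 lists, and the difference of -1.17 points had an interval of -2.34 to 0.557. Absence of these letters says nothing of HNF4G binding. TGANTCA, the AP-1 motif, was in 430 (68.3%), against 63.6% of all anchors and 63.8% of those in all 4 lists. The AP-1 difference from the anchors in all 4 lists was 4.49 points (0.706 to 8.05), and at equal FOXA1 loop number it was 10.5 points (6.50 to 14.4). Within 5 strata of GC content it was -3.30 points (-6.93 to 0.330), and within 5 by 5 strata of GC content and of width -0.280 points (-3.87 to 3.31). Both strands were searched for each motif.

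FOXA1-only anchors lay in sparse surroundings. The median number of anchors within 2 Mb was 39, against 82 around anchors in all 4 lists and 51 at equal FOXA1 loop number. It was 51 around anchors of both FOXA1 lists and 1 HNF4G list, and 29 around the 52 HNF4G-only anchors. The nearest other anchor was a median of 32000.5 bp away, against 6875 bp. No other anchor lay within 50 kb of 237 members (37.6%, against 5.36%), a difference of 18.2 points at equal loop number (14.2 to 22.2). This share was 22.8% for anchors of both FOXA1 lists and 1 HNF4G list and 46.2% for HNF4G-only anchors. Sparse surroundings were thus not particular to FOXA1-only anchors. The nearest other anchor used in an HNF4G list was a median of 40704 bp away. For anchors in all 4 lists this gap was 6943 bp, and 17099 bp at equal FOXA1 loop number. Such an anchor lay within 5 kb of 72 members (11.4%) and within 50 kb of 344 (54.6%). Loop ends of HNF4G lay within 100 kb of 455 members (72.2%), with a median of 3 and up to 151. FOXA1 loop ends of other anchors did so for 500 members (79.4%). These shares were not counted for anchors outside the members.

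By chromosome, FOXA1-only anchors were 0.387% of the 1293 anchors on chromosome 19 (5 anchors, 0.165 to 0.902) and 0.646% on chromosome 17. The share was 4.34% on chromosome 12, 4.26% on chromosome 14 and 3.93% on chromosome 13. On chromosome X, which had only 295 anchors, 24 were members (8.14%, 5.53 to 11.8). They included the promoters of the Mediator subunit gene Med14, the mitophagy receptor gene Fundc1 and the chromatin protein gene Hmgb3.

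The loops of FOXA1-only anchors numbered 1502 in liver mets (1.20% of the list) and 1225 in tumor (1.18%). Their ratio was 1.23 (1.14 to 1.32), beside 1.21 for all other loops, so the members shared the list-wide surplus in liver mets. Among loops of 1000 kb or more it was 1.52 (1.24 to 1.86) for member loops, beside 1.43 (1.39 to 1.47) for all other loops. Member loops were long, with a median span of 273 kb in liver mets and 249 kb in tumor, against 163 and 140 kb. A value of 2 or more was reached by 59 (3.93%) in liver mets and 46 (3.76%) in tumor, against 9.33% and 7.84% of all loops in those lists. The median value was nevertheless higher, at 1.66 in liver mets and 1.75 in tumor, against 1.51 and 1.54 for other loops. Tied at 1.87 and 1.91 were 20.6% and 23.9% of member loops, against 14.5% and 15.4% of other loops. Tied at the low values of 0.0889 and 0.123 were 10.7% and 14.6%, against 10.7% and 14.1%. Under 100 kb, none of 409 liver mets and none of 351 tumor member loops reached 2. Other loops seldom did at these spans, with 6.85%, 3.85% and 2.03% in liver mets and 5.30%, 2.26% and 1.61% in tumor under 20 kb, from 20 to 50 kb and from 50 to 100 kb. From 200 to 500 kb 7.22% of member loops in liver mets and 5.44% in tumor reached 2, against 16.2% and 12.4% of other loops. From 1000 to 2000 kb the member shares were 2.87% and 2.48%, against 3.46% and 2.20%.

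The loops of FOXA1-only anchors were repeated between the cell lines less often than other loops. Of 2484 distinct loops, 243 were in both FOXA1 lists, 1259 only in liver mets and 982 only in tumor. The shared loops were 16.2% (14.4 to 18.1) of member loops in liver mets, against 34.3% of other loops, and 19.8% (17.7 to 22.2) in tumor, against 41.3%. Within ranges of equal span the differences were -12.2 points (-13.9 to -10.5) and -14.2 points (-16.2 to -12.1). By the selection no member loop can be in an HNF4G list, whereas other loops can. Of the other loops, 73965 of 124121 in liver mets and 58418 of 102911 in tumor were in no HNF4G list. Sharing was not counted for these alone or at equal loop number per anchor, so the part of the selection in the difference was not tested. At least 1 shared loop was found for 214 members (34.0%), and no member had more than 3. An anchor can thus be in both FOXA1 lists through different loops.

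**Figure D4:**
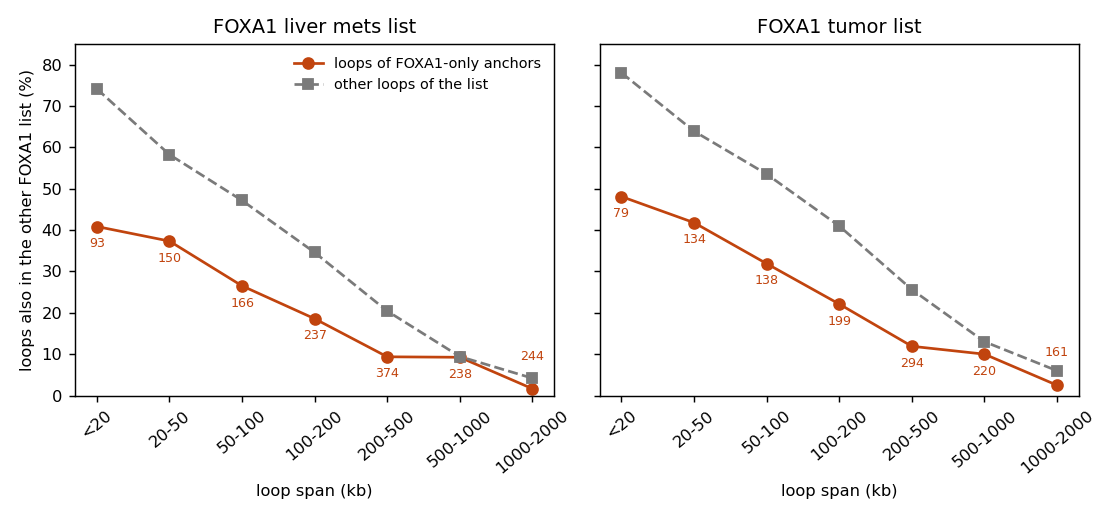
Share of loops also listed in the other FOXA1 list (y axis, %) by loop span (x axis, kb), for loops of FOXA1-only anchors (orange, labels give their number) and other loops of the same list (gray). Left, liver mets list, and right, tumor list. Other loops include loops that are also in an HNF4G list, which member loops cannot be. Under 20 kb the member shares are 40.9% and 48.1% against 74.1% and 78.0%, and the curves approach each other above 500 kb.

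Partners of FOXA1-only anchors were mostly anchors that HNF4G also used. The partner was in all 4 lists for 66.8% of member loops in liver mets (64.4 to 69.1) and 68.2% in tumor (65.5 to 70.7). For the ends of other loops these shares were 95.0% and 95.4%, so member loops reached such anchors less often. Partners at promoters made up 42.0% and 44.2%, against 49.0% and 50.3% of the ends of other loops. The 2302 distinct partners had a median of 8 FOXA1 loops and 4 HNF4G loops, against 14 and 9 for anchors in all 4 lists, and 2056 of them were joined by 1 member only.

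An HNF4G loop with both anchor midpoints within 25 kb of those of the member loop was found for 16.1% of member loops in liver mets and 16.7% in tumor. Among other FOXA1 loops absent from the HNF4G lists the shares were 58.0% and 59.6%, and 59.7% and 60.6% at the members' spans. By the selection, the exact anchor of a member could hold no HNF4G loop. The part of the members' sparse surroundings in this gap was not tested.

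FOXA1-only anchors also joined each other. There were 56 loops between members in each FOXA1 list, 3.73% of member loops in liver mets and 4.57% in tumor. They made up 96 distinct loops, with 16 in both lists, and involved 165 members. Of the connected groups, 58 were pairs. Whether members join each other more than other anchors do was not tested. The largest connected group was on chromosome 12, with 5 members over 1703 kb between Fam84a and Trib2. The Fam84a promoter anchor (chr12:14148972-14150901, 4 and 2 loops) and an anchor 148595 bp away from that start (chr12:14300649-14304163, 6 and 4 loops) were joined by the member loop with the highest value, 7.43 in liver mets and 2.62 in tumor. The nearest anchor used by an HNF4G list was 328467 bp from the promoter anchor. A further loop, of 1019 kb, led on to an anchor at chr12:15319761-15322164 with values of 3.95 and 1.91. In the same region an anchor 68257 bp from Trib2, a pseudokinase gene, was a partner of 4 members.

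The other 3 members among the 5 with the highest values had these values in tumor. An anchor at chr8:116086240-116087831 (5 and 4 loops) was joined to the promoter of Maf, a bZIP transcription factor gene, over 379 kb with values of 1.74 in liver mets and 5.67 in tumor. Near Kirrel3, an adhesion molecule gene, an anchor at chr9:33857775-33859723 (4 and 3 loops) had a 620 kb loop with a value of 6.16 that was in the tumor list only. An anchor at chr1:85088759-85091659 with 1 loop in each list had a tumor loop to the promoter of Sp110, a nuclear body protein gene, with a value of 5.94.

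Among promoter anchors, those of Adh7 and Prkar2a had the most loops, 12 each. The anchor of Adh7 (chr3:138224338-138226696), a retinol-active alcohol dehydrogenase, had 8 in liver mets and 4 in tumor. It joined a second Adh7 anchor 7.69 kb away in both lists, with values of 0.0795 in liver mets and 0.536 in tumor. That second anchor had 1 and 2 HNF4G loops. Only in liver mets the FOXA1-only Adh7 anchor was joined to the promoters of Dnajb14 and the histone gene H2afz with a value of 3.34. The promoter of Prkar2a (chr9:108691116-108692703), a regulatory subunit of protein kinase A, had 5 and 7 loops, to promoters that included Col7a1 and Pfkfb4, and none of its loops was in both lists. The anchor at Atrn (chr2:130905654-130907557) had 8 and 2 loops, none shared. At Heca (chr10:17944867-17949017) there were 7 and 3 loops, and 3 were in both lists, among them a loop to the Txlnb promoter. Zfp53 (chr17:21487754-21489881), in a cluster of zinc finger genes, also had 3 shared loops, the longest to the neighboring Zfp51 promoter at 36.9 kb. Adam23 (chr1:63491174-63494625), a cell adhesion gene, had 5 and 4 loops and was joined to Gpr1, a chemerin receptor gene, with values of 3.03 and 1.76. Rab3b (a GTPase of exocytosis) and Clec2g (a C-type lectin) had anchors of 6 and 4 and of 7 and 3 loops, each under 1 kb from an anchor used by HNF4G, at gaps of 790 and 780 bp. Theg had 7 and 3 loops and Arl15, an ARF-like GTPase gene, 6 and 3.

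Genes from 7 lists of pathways relevant to pancreatic cancer were the nearest protein-coding gene, within 100 kb, of 9 members. Mesenchymal transition genes accounted for 3 members (0.476%, against 0.245% of anchors in all 4 lists). Neural adhesion and axon guidance genes accounted for 3 (0.476%, against 0.278%). Endoderm and pancreas lineage factors, growth factor signaling and cytoskeleton genes had 1 member each (0.159%, against 0.398%, 0.491% and 0.515%). Epithelial junction genes and Wnt, Notch and Hippo genes had 0, against 0.354% and 0.555%. With counts of 0 to 3, no list stands apart here.

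The mesenchymal genes were Zeb2, a repressor of E-cadherin, and Tgfb2, a TGF-beta ligand. An anchor 67026 bp from Zeb2 (chr2:45184421-45187514) had 3 and 2 loops, and its loop to the Zeb2 promoter 75.8 kb away was in both lists. A member in a Zeb2 intron (chr2:45018664-45020610) had 1 and 1 and was joined to the former over 166 kb in tumor. The anchor near Tgfb2 (chr1:186721169-186723451) had 2 and 2 loops, of which a tumor loop led to the Tgfb2 promoter. The promoters of Zeb2 and Tgfb2 were anchors in all 4 lists. Near Egfr, a growth factor receptor gene, a member had 1 and 1 loops, and near Gata4, an endoderm factor gene, a member had 2 and 2. The Cdh18 promoter, of a cadherin gene, had 1 loop in each list, which was the same loop, with values of 0.0889 in liver mets and 0.123 in tumor.

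Sema3a and Sema3e encode secreted semaphorins, guidance cues for axons and vessels. From 650 kb before to 1000 kb after the start of Sema3a there were 16 anchors, of which 4 were FOXA1-only. These 4 took part in 8 of 31 liver mets loops and 10 of 32 tumor loops in the window. HNF4G had 13 and 11 loops in it, at other anchors. All 4 members had a loop to the same anchor in Sema3e (chr5:14030088-14033049), which had 11 and 10 FOXA1 loops and 4 and 3 HNF4G loops. Each of these member loops was in the liver mets list or in the tumor list, not in both. The member upstream of Sema3a was joined to an anchor at an inner start of that gene over 463 kb in both lists, with values of 1.78 and 3.59.

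**Figure D5:**
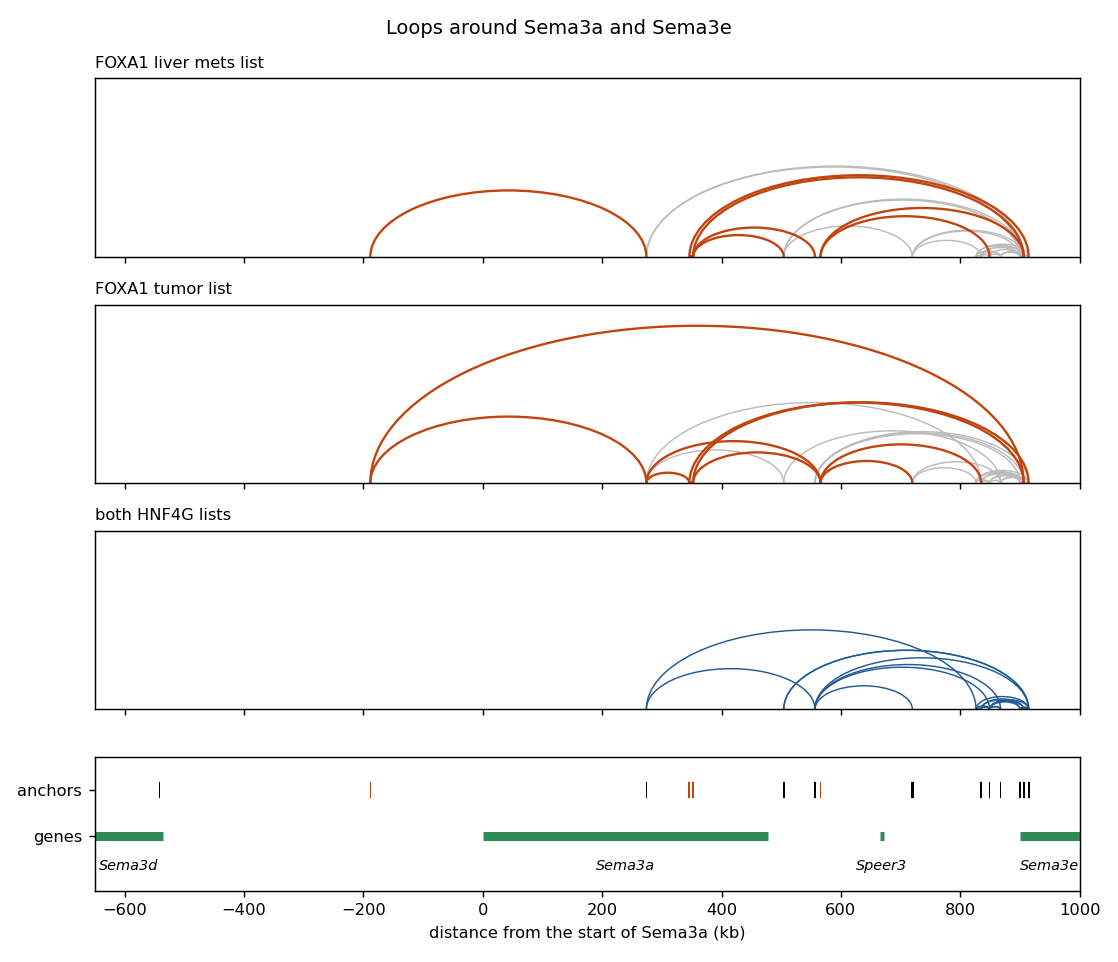
Loops in the FOXA1 liver mets list, the FOXA1 tumor list and both HNF4G lists, drawn as arcs by distance from the start of Sema3a (x axis, kb). Loops and anchors of the 4 FOXA1-only anchors are orange, other FOXA1 loops gray, HNF4G loops blue, other anchors black and protein-coding genes green. HNF4G loops run between the other anchors, and 8 liver mets and 10 tumor loops end at the FOXA1-only anchors.

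Zeb2 was the nearest protein-coding gene of 4 members. Tmeff2, Sema3a, Irx3, Wwox, Tmod3, Prdm1, Apob, Fam84a, Trib2, Fgf9 and Socs6 were nearest to 3 each. They include genes of developmental regulators, such as the homeobox gene Irx3 and the repressor gene Prdm1, and they were counted without a test. The 1 Mb windows with the most members held 4, among them windows on chromosome 11 from 29000001 (of 7 anchors, at Rtn4) and on chromosome 13 from 90000001 (of 13) and 91000001 (of 9). In the chromosome 11 window an anchor 45213 bp from Rtn4, a reticulon gene, had 8 and 2 loops. In the first chromosome 13 window the Tmem167 promoter had 6 and 2, and its loop to the promoter of Vcan, the gene of the matrix proteoglycan versican, was in both lists. Most windows with members held a lone member: of 472 windows, 341 held 1 and 23 held at least 3.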

How the data were processed

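Hi-ChIP loop lists of 4 groups were used, each covering both replicates of its group. Per the methods and the submitters' processing notes, reads were aligned to mm10 and paired with HiC-Pro 3.1.0 using DpnII fragments, and loops were called with hichipper. How the replicates were merged was not given in the sources used here. The authors deposited an unnamed value per loop, which was read as −log10 of an adjusted p because of its tied values and its upper end of 20, and a display score, which was not used. Anchors were matched by identical intervals with Python 3.11.15, pandas 2.3.3, numpy 2.4.6 and scipy 1.17.1. Both ends of all 30542 anchors lay on GATC when counted from 1, so coordinates are given so. Annotation was GENCODE M21 on GRCm38, and promoter sequences were from RefSeq on GRCm38.p6. Shares have Wilson intervals, differences Newcombe intervals, ratios Clopper-Pearson intervals and strata Mantel-Haenszel estimates, which were tested on simulated data. Depth is unknown.

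The members and gene lists were chosen with earlier results of these data known. Anchors named in the text were the 10 with the most loops (ties by chromosome order), the 5 with the highest value, the 10 protein-coding promoters with the most loops, those at or within 100 kb of a listed gene, the 1 Mb windows with the most members (4 tied for 3 places) and the partners shared by most members. Chromosome X promoters and the most frequent nearest genes were named after their values were seen. A few named items that meet this rule are not reported here.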

Additional observations from a re-analysis of the deposited data

How the results depend on the processing

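No paired analysis was possible because each list covers both replicates and carries no replicate number, and for the same reason no replicate could be left out. The number of FOXA1-only anchors, 630 (2.06% of anchors), depended on the rule. It was 1573 (9.64% of the anchors still in use) when only loops with a value of 2 or more counted in all 4 lists. With values that stand for an adjusted p of 0.05 or less it was 1247 (4.14% of those still in use). With at least 2 loops in each FOXA1 list it was 251 (0.822% of all anchors). With only the HNF4G liver mets list or only the HNF4G tumor list required to lack the anchor it was 1819 (5.96%) or 2320 (7.60%). The median distance to a start was 20401.5 bp for protein-coding starts. The promoter difference was -19.5 points with starts within 5 kb. Strata by anchors within 2 Mb and by GC content were chosen after seeing the data, as were the TGTTTAC strata by FOXA1 loop number and the split into promoter and other anchors. In the strata chosen later the promoter difference was -11.7 points (anchors within 2 Mb), 1.33 (GC), 2.97 (GC and width) and -0.799 (FOXA1 loops and GC), and the intervals of the last 3 included 0. The TGTTTAC difference was 9.75 points for TGTTTAC or TATTTAC, 0.0362 within GC strata (-3.86 to 3.93) and -2.97 at promoters (-9.12 to 3.90). Its interval also included 0 within strata of anchors within 2 Mb (1.65 points, -2.32 to 5.62), of GC and width (3.29, -0.576 to 7.15) and of FOXA1 loops and GC (2.56, -1.69 to 6.81). The cause of these shifts was not tested. With a value of 2 or more, the median number of loops per member was 0, the share of partners in all 4 lists was 72.9% in liver mets and 71.7% in tumor, and the share of loops in both lists was 5.08% and 6.52%. With anchor pairs matched within 5 kb the share in both lists was 21.6% and 24.6%, against 48.7% and 55.7% of other loops. The other 28 alternatives stayed within 1.5 times the count or within the interval of the reported value. Without depth or paired reads per loop, the limit of detection of a loop is unknown.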
